A study of Saccharomyces cerevisiae S288C with 6 samples.

Results

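The autophagy machinery of budding yeast was followed through 33 genes, those of the core machinery, the receptors for selective cargo and the Vps34 lipid kinase complex, found by name among the 7126 rows of the deposited table. Messenger RNA had been measured in 3 libraries labelled wild type (strain EDS76) and 3 labelled with LTV1 deleted on both copies (strain EDS615, ltv1∆/ltv1∆), all in the S288C background. Ltv1 helps to assemble the small ribosomal subunit, and the study asked what else is altered without it. All cells grew in rich medium (YPD) at 30 °C and were harvested in exponential growth (optical density between 0.5 and 0.6). No starvation or other inducer of autophagy is named in the labels, and both groups were grown the same way. The libraries held 1002573 to 1248710 reads, each a tag from the 3' end of a polyadenylated RNA.

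Autophagy carries cytoplasm to the vacuole, the yeast counterpart of the lysosome, inside a double membrane that grows around its cargo. Starvation and low TORC1 activity start it through the Atg1 kinase, after which Atg9 vesicles, lipid transfer, the Vps34 kinase and conjugation of the ubiquitin-like protein Atg8 to membrane build the autophagosome. In rich medium yeast still runs a selective form, the cytoplasm-to-vacuole targeting (Cvt) pathway, which delivers hydrolases such as Ape1 by means of the receptor Atg19. The 33 genes divide into 20 of the core machinery, 3 cargo receptors, 8 factors used mainly or also on selective routes, and 2 that act inside the vacuole on what was delivered.

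The reads of LTV1 went against the labels in part, most in ltv1 deletion 1 and wild type 3. Wild type 1, 2 and 3 held 29.2, 191 and 8.77 normalized counts of it, and ltv1 deletion 1, 2 and 3 held 680, 3.22 and 6.40. Its level thus spread widely within each label, 680 beside 3.22 and 6.40 among the deletion libraries and 191 beside 8.77 among the wild type libraries. The labels do not state how much of the gene was removed. Whether libraries were exchanged between labels was not tested, and an exchange would change every fold change given here. Every direction below compares libraries by their labels, and results are given also without wild type 3 and ltv1 deletion 1, the libraries whose LTV1 reads go most against their labels. Nothing in the labels tells whether the replicates came from separate cultures, so p-values measure the spread between these samples, which may be technical. In RNA from a whole culture, fewer cells that express a gene and less of its RNA per cell cannot be told apart.

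Of the 33 genes, 4 fell in the libraries labelled ltv1 deletion and 0 rose. The genes that fell were ATG33, ATG34, ATG8 and ATG20. The test was limma on log2(normalized read count + 1) with Benjamini-Hochberg adjustment over 5663 genes, at an adjusted p of 0.05. All 33 passed the filter on low values, a mean normalized count of 5 or more. Over all genes tested, 6.98% were called lower and 8.88% higher, beside 12.1% of the autophagy genes called lower. At an unadjusted p under 0.05, 10 of the 33 were lower and 0 higher, against 16.9% and 17.8% of all genes tested. On the recovered reads edgeR's quasi-likelihood test called 6 lower and 0 higher, against 9.25% and 10.5% of all genes, and DESeq2 called 5 and 0, against 10.1% and 11.2%.

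The fold changes of the 33 genes lay mostly on the lower side. Their median log2 fold change (ltv1 deletion minus wild type) was -0.43, against -0.02 over all genes tested, and 29 of the 33 were below 0, against 50.8% of all genes. In 13 of the 33 all 3 deletion libraries lay below all 3 wild type libraries, where 20.0% of all genes did so. The reverse held for ATG11 alone, against 21.6% of all genes. These counts describe the genes and carry no test.

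**Figure D1:**
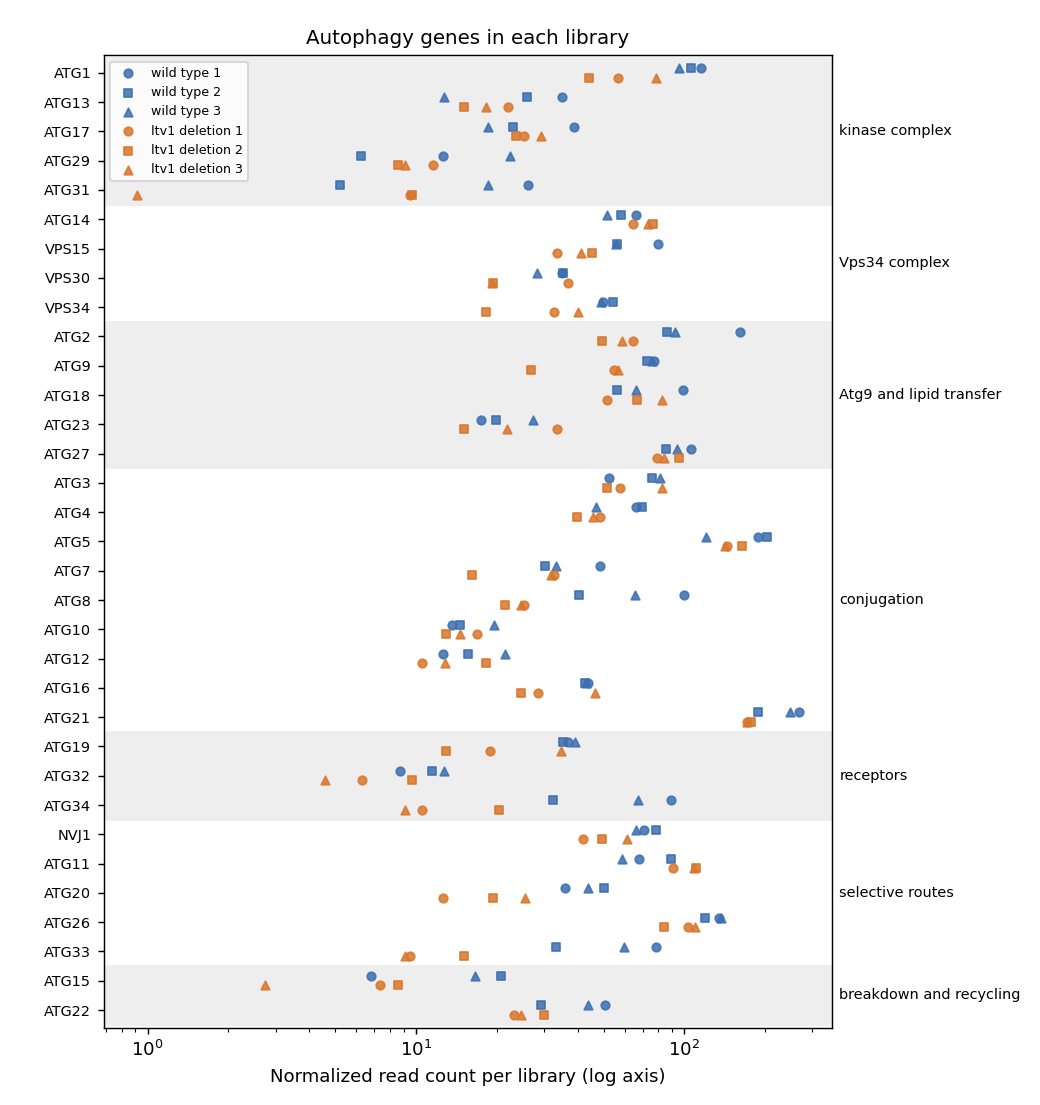
Normalized read count of each of the 33 autophagy genes (rows, grouped by role) in each of the 6 libraries, on a log axis. Blue points are libraries labelled wild type and orange points those labelled ltv1 deletion, with the marker shape giving the replicate number. ATG33, ATG34, ATG8 and ATG20 show all 3 orange points to the left of all 3 blue points, and ATG31 has a single read in ltv1 deletion 3.

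The sequences upstream of the 4 genes that fell are shown to let their promoters be compared. Each runs 5′ to 3′ on the gene's own strand from 250 bases before the annotated start codon to 50 bases after its first base (RefSeq, build R64). The windows are chrXII:840071-840370 (plus strand) for ATG33, chrXV:165464-165763 (plus) for ATG34, chrII:80682-80981 (minus) for ATG8 and chrIV:258506-258805 (minus) for ATG20. Capitals mark matches, on either strand, to the stress response element AGGGG that Msn2 and Msn4 bind, the Gcn4 site TGACTC and the GATA site GATAAG of Gln3 and Gat1.
ATG33: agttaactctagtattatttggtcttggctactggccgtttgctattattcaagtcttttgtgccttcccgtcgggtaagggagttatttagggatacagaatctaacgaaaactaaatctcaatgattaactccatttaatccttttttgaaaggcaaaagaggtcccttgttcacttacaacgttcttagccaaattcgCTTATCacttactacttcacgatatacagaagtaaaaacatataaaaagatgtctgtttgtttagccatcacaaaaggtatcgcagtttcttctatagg
ATG34: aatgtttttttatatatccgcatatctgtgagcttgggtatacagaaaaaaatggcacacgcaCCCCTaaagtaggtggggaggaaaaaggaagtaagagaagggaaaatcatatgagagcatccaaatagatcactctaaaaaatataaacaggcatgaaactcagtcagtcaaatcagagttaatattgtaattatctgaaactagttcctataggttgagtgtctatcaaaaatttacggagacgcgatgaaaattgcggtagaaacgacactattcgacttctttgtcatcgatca
ATG8: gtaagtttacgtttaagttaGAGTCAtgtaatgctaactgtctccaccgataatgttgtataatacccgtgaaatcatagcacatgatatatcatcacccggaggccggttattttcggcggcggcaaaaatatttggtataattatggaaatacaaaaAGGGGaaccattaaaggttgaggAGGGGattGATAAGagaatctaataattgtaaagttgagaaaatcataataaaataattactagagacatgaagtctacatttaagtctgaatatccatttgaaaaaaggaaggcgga
ATG20: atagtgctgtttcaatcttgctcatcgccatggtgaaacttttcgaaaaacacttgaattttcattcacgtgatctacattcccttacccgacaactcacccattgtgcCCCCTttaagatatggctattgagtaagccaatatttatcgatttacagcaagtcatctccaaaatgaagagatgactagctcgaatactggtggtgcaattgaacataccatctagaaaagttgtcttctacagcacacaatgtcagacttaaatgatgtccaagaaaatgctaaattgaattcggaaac

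The element AGGGG occurred in 3 of the 4 windows of genes that fell, in 9 of the 33 autophagy windows and in 21.6% of 6001 protein-coding windows of this length. ATG8 held it at 91 and 68 bases before the start codon, ATG20 at 141 and ATG34 at 187. ATG33, the gene with the largest decrease of the 33, held none within the window. The GATA site was in 9 of the 33 windows (14.7% of all) and the Gcn4 site in 8 (7.98% of all). The exact letters AGCCGCC, the core of the site URS1 that Ume6 binds, were in 0 of the 33 and in 2.17% of all windows. Only exact matches were counted, so a site that departs from these letters would be missed. The ATG8 window holds ggcggca, which differs only in its last letter from GGCGGCT, the core read on the other strand. None of these motifs overlaps another in the 4 windows printed. A match is a run of letters, and binding was not measured.

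Of the 3 cargo receptors, ATG34 fell and ATG19 and ATG32 did not pass the threshold, where 6.98% of all genes were called lower. ATG34 encodes a receptor that brings α-mannosidase (Ams1) to the autophagosome in starved cells. Its normalized read count was 89.4, 32.3 and 67.3 in wild type 1, 2 and 3 and 10.5, 20.4 and 9.14 in ltv1 deletion 1, 2 and 3. The highest deletion library lay below the lowest wild type library. The means were 63.0 ± 28.8 and 13.4 ± 6.16 (SD, n = 3 each), a 4.72-fold lower mean, with a log2 fold change of -2.12 (standard error 0.44; limma adjusted p = 0.0222). Of the 5663 genes tested, 99 had a more negative log2 fold change.

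ATG19, the Cvt receptor for Ape1, is the paralog of ATG34 and its neighbour on chromosome XV. Its normalized read count was 36.9, 35.4 and 39.0 in wild type 1, 2 and 3 and 18.9, 12.9 and 34.7 in ltv1 deletion 1, 2 and 3. The wild type libraries were close together, and ltv1 deletion 3 nearly reached them. The log2 fold change was -0.83 with a 95% interval of -1.64 to -0.02 (limma adjusted p = 0.139). Within each library the log2 ratio of ATG34 to ATG19 was 1.25, -0.13 and 0.77 in wild type and -0.79, 0.62 and -1.82 in the deletion. The groups overlap in this ratio, so ATG34 is not shown to differ more than ATG19. An exact two-sided permutation test over the 6 libraries gave p = 0.2. With so few libraries its smallest possible p is 0.1, so it cannot decide the question. The coding sequences, 1239 and 1248 bases long, are 50.7% identical in a global alignment, with no identical run longer than 12 bases.

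ATG32, the mitophagy receptor on the mitochondrial surface, had few reads. Wild type 1, 2 and 3 stood at 8.75, 11.5 and 12.7 normalized counts and the deletion libraries at 6.31, 9.67 and 4.57, the lowest of them from 5 reads. The groups overlap, and the log2 fold change was -0.64 with a 95% interval of -1.34 to 0.05 (limma adjusted p = 0.168). A 2-fold decrease lies within that interval, so at this depth it could not be told from no change.

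Among the factors of selective routes ATG33 and ATG20 fell, and the other 6 did not pass the threshold. The share of all genes called lower was 6.98%. ATG33 encodes a protein of the mitochondrial outer membrane that promotes mitophagy. Its normalized read count was 78.7, 33.3 and 59.5 in wild type 1, 2 and 3 and 9.46, 15.0 and 9.14 in ltv1 deletion 1, 2 and 3. The groups are far apart, with the lowest wild type library, wild type 2, well above the highest deletion library. The means were 57.2 ± 22.8 and 11.2 ± 3.32 (SD, n = 3 each), a 5.10-fold lower mean, with a log2 fold change of -2.20 (standard error 0.36; limma adjusted p = 0.0153). In all, 84 tested genes had a more negative log2 fold change.

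ATG20 encodes a sorting nexin that acts in the Cvt pathway and in membrane recycling. It stood at 36.0, 50.0 and 43.9 normalized counts in wild type and at 12.6, 19.3 and 25.6 in the deletion libraries. The groups do not overlap, and the log2 fold change was -1.17 (standard error 0.30; limma adjusted p = 0.0366), a 2.26-fold lower mean. ATG11, the scaffold that links receptors to the core machinery, had the highest log2 fold change of the 33. It stood at 68.0, 89.6 and 58.5 in wild type and at 90.4, 111 and 109 in the deletion libraries, with the lowest deletion library barely above the highest wild type library. Its log2 fold change was 0.53 with a 95% interval of -0.04 to 1.10 (limma adjusted p = 0.166).

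NVJ1, which anchors the nucleus to the vacuole for the piecemeal degradation of nuclear material, stood at 70.9, 78.1 and 66.3 in wild type and at 42.0, 49.4 and 61.2 in the deletion libraries (log2 fold change -0.50, limma adjusted p = 0.167). ATG26, a sterol glucosyltransferase, had a log2 fold change of -0.41 (limma adjusted p = 0.221). In both genes the groups lay apart by less than the spread within the deletion libraries. ATG21, a phosphoinositide-binding protein that helps recruit the conjugation machinery in the Cvt pathway, stood at 267, 187 and 248 against 171, 177 and 172 (log2 fold change -0.41, limma adjusted p = 0.230). ATG23 and ATG27, which help move Atg9 to the assembly site, had log2 fold changes of 0.08 and -0.14, with 95% intervals of -0.69 to 0.85 and -0.63 to 0.36.

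**Figure D2:**
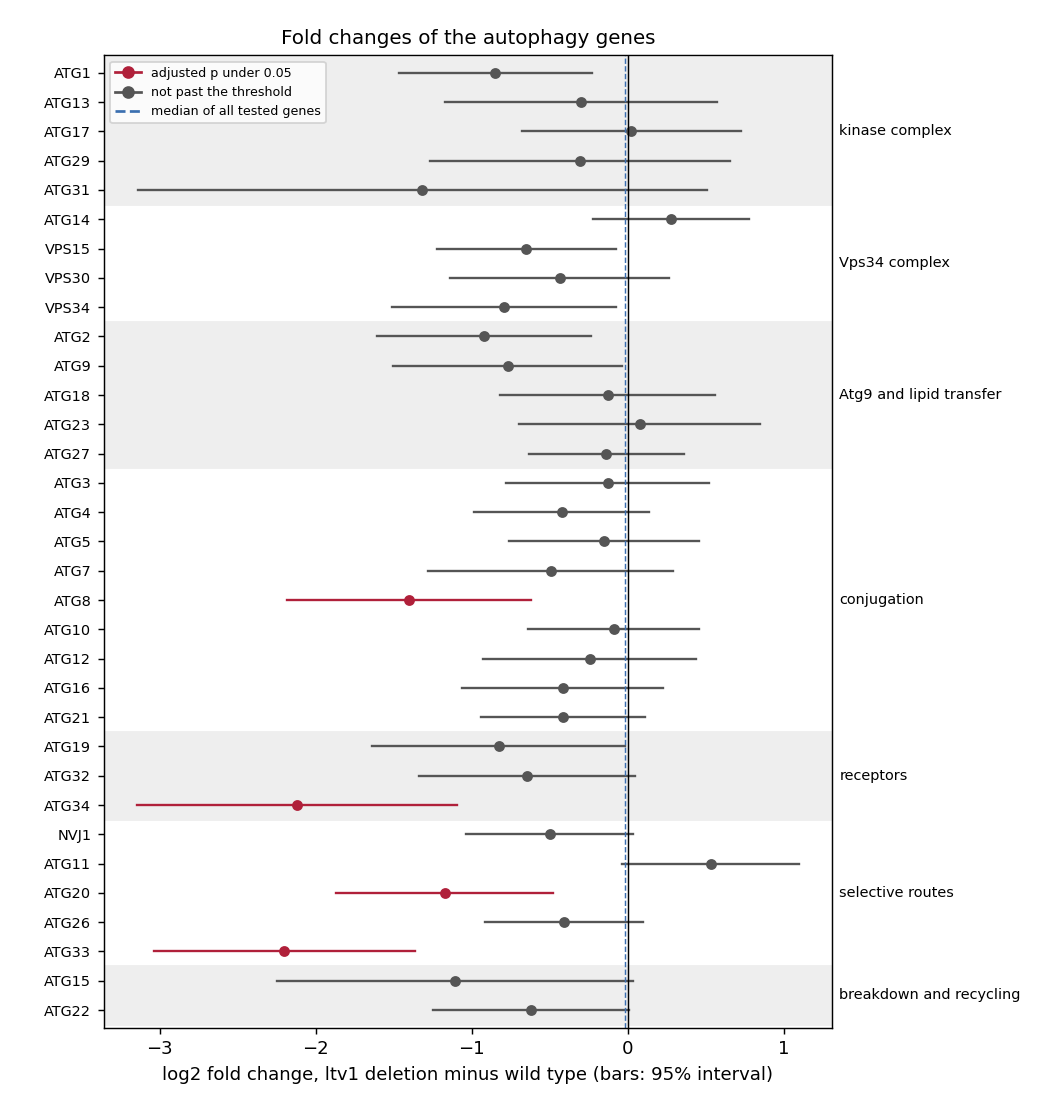
Log2 fold change (ltv1 deletion minus wild type) of each of the 33 genes, grouped by role, with bars for the 95% interval of the limma fit. Red marks the 4 genes past an adjusted p of 0.05, and the dashed line is the median of all tested genes at -0.02. ATG33 at -2.20 and ATG34 at -2.12 lie furthest to the left, and ATG11 at 0.53 furthest to the right.

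Of the 20 core genes 1 fell, ATG8, and 19 did not pass the threshold, against 6.98% of all genes called lower. By edgeR 3 were called lower, ATG8, ATG1 and ATG2, against 9.25% of all genes. The median log2 fold change of the core genes was -0.42, against -0.83 for the 3 receptors and -0.02 for all genes tested. Without wild type 3 and ltv1 deletion 1 the core and receptor medians were closer, at -0.64 and -0.74. ATG8 encodes the ubiquitin-like protein that is attached to phosphatidylethanolamine, coats the growing membrane and binds the receptors. Its normalized read count was 100.1, 40.6 and 65.3 in wild type 1, 2 and 3 and 25.2, 21.5 and 24.7 in ltv1 deletion 1, 2 and 3. Wild type libraries were spread widely, while the deletion libraries were close together and all lower. The means were 68.7 ± 29.9 and 23.8 ± 2.01 (SD, n = 3 each), a 2.89-fold lower mean, with a log2 fold change of -1.40 (standard error 0.34; limma adjusted p = 0.0306).

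The other 8 genes of the conjugation systems had log2 fold changes between -0.49 and -0.09, and 0 of them passed the threshold or an unadjusted p under 0.05. Of all genes, 16.9% were lower at that unadjusted p. ATG7, the activating enzyme of both systems, was at -0.49 (95% interval -1.28 to 0.29), and ATG3, the conjugating enzyme for Atg8, at -0.13 (-0.78 to 0.52). ATG4, the protease that trims and releases Atg8, was at -0.42 (-0.99 to 0.14). ATG5, ATG12 and ATG16, which form the complex that directs Atg8 to the membrane, were at -0.15, -0.24 and -0.42. ATG10, the conjugating enzyme for Atg12, was at -0.09. The log2 ratio of ATG34 to ATG8 within each library overlapped between the groups (exact two-sided permutation p = 0.3, smallest possible 0.1).

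Of the 5 genes of the Atg1 kinase complex 0 were called by limma. At an unadjusted p under 0.05, 1 was lower (16.9% of all genes), and edgeR called the same gene (9.25% of all genes lower). That gene was ATG1, the kinase, with 116, 106 and 95.5 in wild type and 56.8, 44.1 and 78.6 in the deletion libraries. The groups do not overlap, and its log2 fold change was -0.85 (limma adjusted p = 0.0691; edgeR adjusted p = 0.0487). ATG13, its regulatory subunit, and ATG17, the scaffold, were at -0.30 (95% interval -1.17 to 0.57) and 0.02 (-0.68 to 0.73). ATG29 and ATG31, the partners of Atg17, were low: ATG31 rested on 27, 5 and 19 reads in wild type and 9, 9 and 1 in the deletion libraries. Its log2 fold change of -1.32 had a 95% interval of -3.14 to 0.51. ATG29 overlaps SET6 by 24 bases on the opposite strand, and the labels do not state the strand used in counting, so reads at that end could belong to either gene.

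Of the 4 genes of the Vps34 complex, which makes phosphatidylinositol 3-phosphate on the membrane, 0 passed in limma or edgeR. At an unadjusted p under 0.05, 2 were lower, against 16.9% of all genes. VPS15, the regulatory subunit, stood at 79.7, 56.2 and 55.6 in wild type and at 33.6, 45.1 and 41.1 in the deletion libraries (log2 fold change -0.65, limma adjusted p = 0.109). VPS34, the lipid kinase, stood at 49.6, 54.2 and 48.7 against 32.6, 18.3 and 40.2 (log2 fold change -0.79, limma adjusted p = 0.116). In both genes the groups do not overlap, as in 20.0% of all genes on the lower side. VPS30, the yeast Beclin 1, was at -0.43 with overlapping groups. ATG14, the subunit that commits the complex to autophagy, was on the other side at 0.28 (95% interval -0.22 to 0.78), with 66.1, 58.3 and 51.7 in wild type and 64.1, 76.3 and 73.1 in the deletion libraries.

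Of the core genes that supply membrane, ATG2 and ATG9 were lower in every deletion library than in any wild type library. The share of all genes lower in this way was 20.0%, and neither gene passed the threshold in limma. ATG2, the lipid transfer protein, stood at 161, 86.4 and 92.6 in wild type and at 64.1, 49.4 and 58.5 in the deletion libraries. Its log2 fold change was -0.92 (limma adjusted p = 0.0715; edgeR adjusted p = 0.0363). ATG9, the membrane protein of the vesicles that seed the autophagosome, was at -0.77 (limma adjusted p = 0.131), with 76.8, 72.9 and 76.0 against 54.7, 26.9 and 56.7. ATG18, the phosphoinositide-binding partner of Atg2, was at -0.13 with overlapping groups.

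The 2 genes that act after delivery did not pass in limma or edgeR. Of them 0 had an unadjusted p under 0.05, where 16.9% of all genes were lower. ATG15, the vacuolar lipase that opens the delivered body, was at -1.11 with a 95% interval of -2.25 to 0.03 and 3 to 20 reads per library. ATG22, which exports amino acids from the vacuole, was at -0.62 (-1.25 to 0.01).

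Summed over genes, the receptors took a smaller share beside the core in the deletion libraries. The 20 core genes summed to 1321, 1079 and 1018 normalized counts in wild type 1, 2 and 3 and to 826, 752 and 907 in ltv1 deletion 1, 2 and 3. The 3 receptors summed to 135, 79.1 and 119 in wild type and to 35.7, 43.0 and 48.4 in the deletion libraries. The receptor sum was thus 10.2%, 7.34% and 11.7% of the core sum in wild type and 4.33%, 5.71% and 5.34% in the deletion libraries, with no overlap. That gap rested on ATG34: with ATG34 left out the shares were 3.46%, 4.34% and 5.08% in wild type and 3.05%, 3.00% and 4.33% in the deletion libraries, which overlap. Among the 20 core genes 6 had all deletion libraries below all wild type libraries, and among the 3 receptors 2 did, against 20.0% of all genes.

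The calls depended on which libraries were in the fit. With 1 library left out, ATG33 passed in 4 of 6 fits, ATG34 in 2, ATG8 in 1 and ATG20 in 0. ATG33 missed the threshold without ltv1 deletion 1 (adjusted p = 0.0519) and without ltv1 deletion 3 (adjusted p = 0.0656), by limma. ATG34 still passed when wild type 2 or ltv1 deletion 2 was the library dropped, and ATG8 when wild type 2 was. Of all genes tested, 3.67%, 7.89% and 3.81% were called lower without wild type 1, 2 or 3, and 1.41%, 1.61% and 0.247% without ltv1 deletion 1, 2 or 3. The log2 fold changes moved less, from -2.54 to -1.93 for ATG33, -2.53 to -1.81 for ATG34, -1.73 to -1.09 for ATG8 and -1.40 to -0.92 for ATG20. With wild type 3 and ltv1 deletion 1 both left out they were -2.04, -1.90, -1.43 and -0.90. In that fit limma called 0 of the 33, and 0.0706% of all genes lower and 0.212% higher, with 7 of the 33 lower and 0 higher at an unadjusted p under 0.05 (12.3% and 13.2% of all genes).

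**Figure D3:**
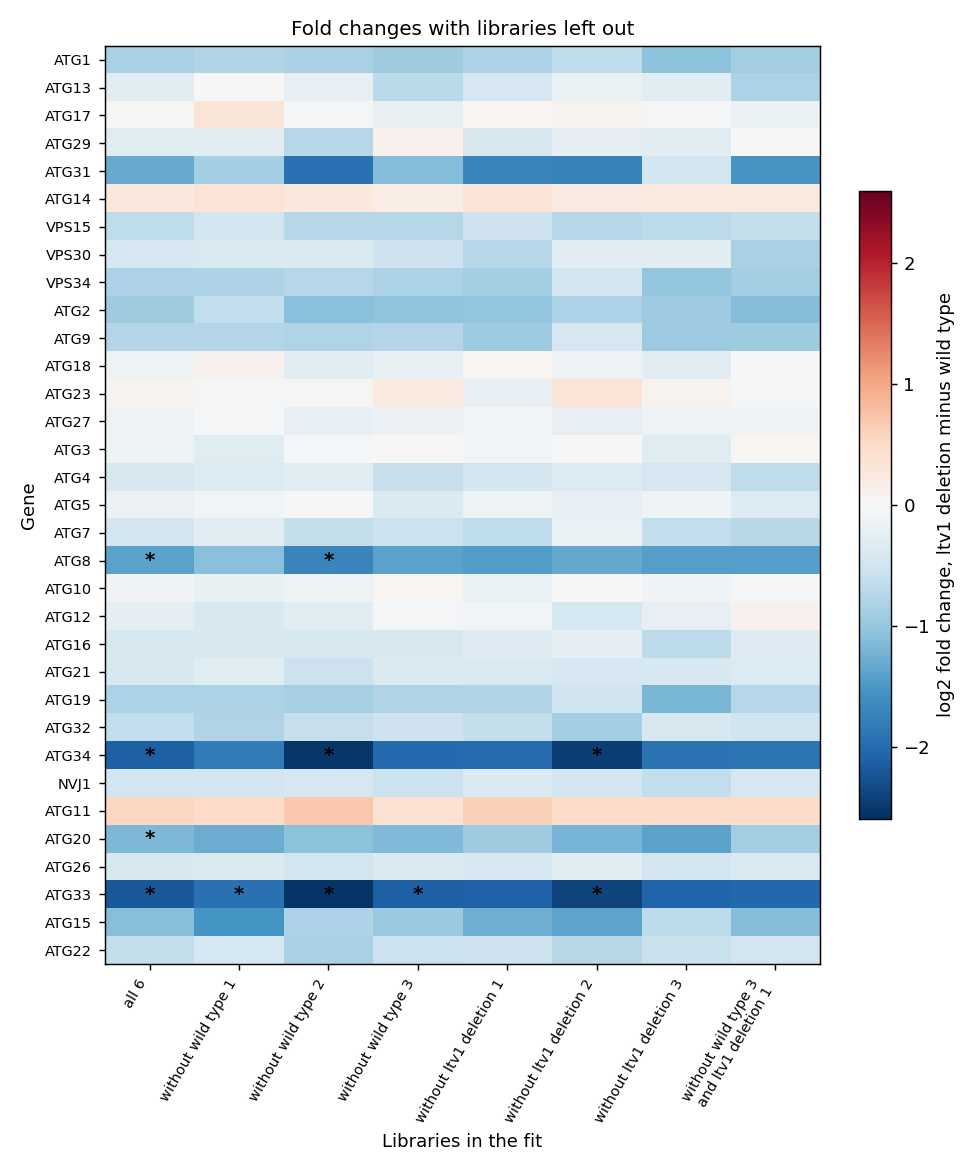
Log2 fold change (colour, blue for lower in ltv1 deletion) of the 33 genes in the fit on all 6 libraries, with each library left out in turn, and without wild type 3 and ltv1 deletion 1 together. Stars mark an adjusted p under 0.05 over all genes tested. ATG33 carries 5 stars across the columns, and the last column holds none.

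The authors' deposited table called 0 of the 33 at an adjusted p under 0.05, and 1.57% of the 5472 genes to which it gives one. For 29 of the 33 genes the authors' deposited table gives a mean that differed by over 1% from the mean of the 6 libraries, so it does not come from these values alone, and its fold changes and calls are not a like-for-like comparison with those above. In the authors' deposited table ATG34 had a log2 fold change of -1.25 (adjusted p = 0.392), ATG33 one of -1.21 (adjusted p = 0.398) and ATG8 one of -0.92 (adjusted p = 0.878). For 19 of the 33 the p-value in the authors' deposited table was exactly 1.

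Genes around the machinery were taken from lists of known function. Of 4 Cvt cargo genes 2 fell and 0 rose, with a median log2 fold change of -1.56. APE1, the main cargo peptidase, stood at 297, 122 and 171 in wild type and at 20.0, 19.3 and 8.22 in the deletion libraries. APE4, an aspartyl aminopeptidase carried by the same route, stood at 121, 80.2 and 99.4 against 54.7, 55.9 and 40.2 (log2 fold change -0.98, limma adjusted p = 0.0403). Of 5 vacuolar peptidase genes 3 fell, PEP4, PRC1 and ATG42 (listed as YBR139W), with a median of -1.16. PRC1, carboxypeptidase Y, stood at 1599, 879 and 1403 against 549, 676 and 474 (log2 fold change -1.16, limma adjusted p = 0.0357). Over all genes 6.98% were called lower. Without wild type 3 and ltv1 deletion 1 limma called 0 genes of either list, and 3 of the cargo genes and 4 of the peptidase genes were lower at an unadjusted p under 0.05, against 12.3% of all genes.

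Of 11 further autophagy factors 10 were tested, 1 fell and 1 rose (median -0.35), near the 6.98% and 8.88% of all genes. None of them was called by limma (0 of 10) when wild type 3 and ltv1 deletion 1 were left out. At an unadjusted p under 0.05 that fit had 3 lower and 1 higher, against 12.3% and 13.2% of all genes. HSV2, a relative of ATG18 and ATG21, stood at 82.6, 52.1 and 48.7 in wild type and at 18.9, 23.6 and 23.8 in the deletion libraries (log2 fold change -1.39, limma adjusted p = 0.0201). ATG39 (listed in the table as YLR312C), a receptor for nuclear envelope and perinuclear endoplasmic reticulum, rose, with 14.6, 14.6 and 16.6 against 29.4, 24.7 and 29.2 (log2 fold change 0.82, limma adjusted p = 0.0356). By edgeR 0 genes of this list were called higher, against 10.5% of all genes. The receptors ATG40 (listed as YOR152C), for the endoplasmic reticulum, and CUE5, for ubiquitinated proteins, were on the other side, at log2 fold changes of -0.83 and -0.64, and did not pass (limma adjusted p = 0.135 and 0.194). ATG36, the pexophagy receptor, had 0 to 3.89 normalized counts and was not tested.

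Of 13 genes for tethering and fusion at the vacuole 0 were called by limma, with 3 lower and 0 higher at an unadjusted p under 0.05 and 1 called lower by edgeR. Over all genes these shares were 16.9% and 17.8% at that unadjusted p, and 9.25% lower by edgeR. Of 15 genes of TORC1 and its regulators 0 were called by limma or edgeR, with 2 lower and 0 higher at an unadjusted p under 0.05, against the same 16.9% and 17.8%, and their median was -0.11. Of 12 regulators named for the transcription of autophagy genes 1 fell, MSN2, which encodes a factor that binds the stress response element. This is near the 6.98% of all genes called lower, and limma called 0 of the list without wild type 3 and ltv1 deletion 1. At an unadjusted p under 0.05 that fit had 2 lower and 0 higher, against 12.3% and 13.2% of all genes. MSN2 stood at 47.6, 48.9 and 34.1 in wild type and at 20.0, 17.2 and 24.7 in the deletion libraries (log2 fold change -1.04, limma adjusted p = 0.0313). GAT1 was higher in every deletion library than in any wild type library, as were 21.6% of all genes. It stood at 86.5, 89.6 and 62.4 against 178, 101 and 148 (log2 fold change 0.81, limma adjusted p = 0.0914). With all 6 libraries edgeR called 1 of the list lower and 1 higher, against 9.25% and 10.5% of all genes.

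General stress genes were lower in the same libraries. Of 14 tested general stress genes, such as HSP12 and CTT1, 7 fell and 0 rose, against 6.98% and 8.88% of all genes. When wild type 3 and ltv1 deletion 1 were left out, 0 were called by limma, and 9 were lower at an unadjusted p under 0.05, against 12.3% of all genes. Their mean level, relative to the mean of all 6 libraries on the log2 scale, was 1.48, 0.34 and 0.84 in wild type 1, 2 and 3 and -1.30, -0.71 and -0.66 in ltv1 deletion 1, 2 and 3. The same measure over the 33 autophagy genes was 0.42, 0.15 and 0.29 in wild type and -0.26, -0.34 and -0.27 in the deletion libraries. In both, wild type 1 was the highest library and wild type 2 the lowest of its label. Among the deletion libraries the lowest one differed. It was ltv1 deletion 1 for the stress genes and ltv1 deletion 2 for the autophagy genes, whose 3 values lay close together. The part of the stress genes' difference in the autophagy genes' difference was not tested.

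**Figure D4:**
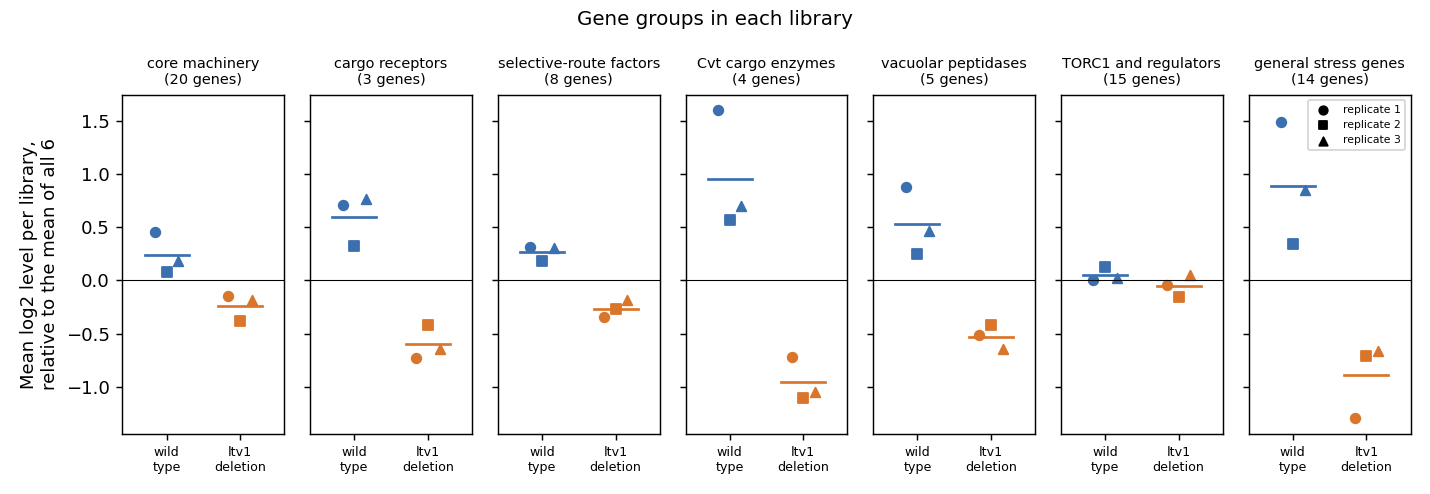
Mean log2 level of each gene group in each library, relative to the mean of all 6 libraries, with horizontal lines for the mean of the 3 libraries of a label and marker shapes for the replicate number. Wild type is blue and ltv1 deletion orange. The core machinery spans -0.38 to 0.45, the receptors -0.73 to 0.76 and the general stress genes -1.30 to 1.48, while TORC1 and its regulators stay between -0.15 and 0.13.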

How the data were processed

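The submitters' processing notes name FastQC, Trim Galore, STAR and Salmon, also DESeq2 1.34.0 with R 4.1.3, and genome build R64. The deposited signal is a read count per gene divided by a size factor per library: in every library 100% of the non-zero values were whole multiples of the smallest step, to within 0.01. The authors also deposited a log2 fold change and p-value per gene, from a fit not analysed here. The labels do not state how molecular identifiers and strand were used.

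Limma 3.58.1 (R 4.3.3) was run on log2(value + 1), with no trend, over genes with a mean of 5 or more. The log2 scale understates the change of low genes. The alternatives were other filters, pseudocounts, scalings and tests (edgeR 4.0.16 and DESeq2 1.42.0 on recovered reads), a replicate block and fits without libraries, on the same genes. The limma fit was tested on simulated data with the same variability in every gene. It recovered 14.2% of 2-fold decreases and 89.7% of 4-fold decreases, so most 2-fold decreases were missed there. Genes given in full were those past the threshold, the receptors, ATG1, ATG8, the next 3 by adjusted p, and up to 3 per list. ATG9, ATG11, ATG14, ATG21, ATG31, VPS34, NVJ1 and GAT1 were added after their values were seen. Members and lists were chosen with earlier results of these data known. Sequences were read with Biopython 1.88, and intervals on reads cover counting error only.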

Additional observations from a re-analysis of the deposited data

How the results depend on the processing

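ATG33, ATG34, ATG8 and ATG20 kept their direction in every alternative that tested them. In each, every deletion library lay below every wild type library, so leaving libraries out could not have reversed the sign. Autophagy genes called lower numbered 4. They were 2, ATG1 and ATG2, with a mean value of at least 50, where those 4 and all receptors were not tested, 1 (ATG33) with the replicate block, 0 without both wild type 3 and ltv1 deletion 1, and 0 to 3 with 1 library left out. Core genes called lower (1) were 2 with a mean of at least 50 or DESeq2, 3 with trend and robust options or edgeR, 0 with the block, 0 without both and 0 to 1 with 1 left out. Receptors called lower (1) were 0 with the block, 0 without both and 0 to 1 with 1 left out. All genes called (898) were 903 with a mean of at least 50, where fewer genes were tested. They were 1126 with trend and robust options, 1121 with edgeR and 1207 with DESeq2. With the block they were 430, without both 16 and with 1 left out 24 to 977. Same-numbered deviations correlated at -0.11, -0.20 and 0.07 across genes, which gave no sign that the replicate numbers pair the libraries. The highest correlation between labels was 0.28, of wild type 2 with ltv1 deletion 1. So few libraries cannot show that they were unpaired.

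The core median was -0.64 and the receptor median -0.74 without both. With 1 left out they were -0.55 to -0.26 and -1.19 to -0.77. Genes near 0 that changed sign without both were ATG3 (0.044), ATG12 (0.12), ATG17 (-0.18) and ATG23 (-0.031). ATG17 was -0.025 with edgeR and -0.036 with DESeq2. With 1 left out the ranges were -0.32 to 0.0074 for ATG3, -0.19 to 0.057 for ATG10, -0.70 to 0.0022 for ATG13, -0.20 to 0.32 for ATG17, -0.30 to 0.10 for ATG18, -0.21 to 0.35 for ATG23 and -0.74 to 0.11 for ATG29. The cause was not tested. Counting error limits ATG15, ATG29, ATG31, ATG32 and ATG33 most, since each had under 10 reads in at least 1 library.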
